A study of Homo sapiens with 5 samples.

Results

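The transcriptome described here is that of IMR-90 cells transfected with a control siRNA (Ctr-KD), and it comprises 2 of the 5 libraries of the series. IMR-90 is an established line of diploid human fetal lung fibroblasts that divides for a limited number of passages and then becomes senescent. The series used poly(A) RNA sequencing to compare Ctr-KD cells with cells in which the histone methyltransferase NSD2 was depleted, and the other 3 libraries, from NSD2 siRNA cells, were not used. Ctr-KD cells were grown in DMEM/F12 with 10% heat-inactivated fetal bovine serum and collected 24 h after transfection. Both libraries come from 1 cell line and from transfected cells. The sample labels call them replicates, and the study's methods call them biological replicates, though neither says how the cultures were separated.

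Fibroblasts build and remodel the connective tissue of organs. They secrete fibrillar collagens, fibronectin and proteoglycans, pull on this matrix through integrins and actin stress fibers, and can turn into contractile myofibroblasts. In the lung they descend from mesenchyme that surrounds the airway epithelium, and transcription factors of the forkhead and T-box families mark that origin.

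The deposited table lists 26364 gene names with counts scaled between libraries by the authors. Every value of both columns was a whole multiple of the value of 1 read, which was 0.953 normalized counts in replicate 1 and 1.03 in replicate 2. Summed over all listed names, the libraries thus held 2769316 and 2579675 reads. Names that share exons appear to hold the same reads, so these sums and the shares taken of them can count some reads repeatedly. A gene was taken as expressed at a mean of at least 10 normalized counts, and at the floor with 3 reads or fewer in each library. A gene without a read in these 5348991 summed reads can still reach 0.561 in 1000000 summed reads, which covers counting error only. By these limits 11272 genes were expressed, 1827 were low and 13265 were at the floor, of which 10374 had no read at all. Places and shares are by normalized count unless called per length, and orders by count depend on transcript length, since long transcripts give more reads. Levels of different genes were compared per length, as reads per base of the canonical transcript scaled to sum to 1000000 in each library (transcripts per 1000000, TPM).

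Levels of markers of the labelled cell type are given first. COL1A1, which encodes the pro-alpha chain that makes up most of type I collagen, had 100129.6 and 104010.0 normalized counts in replicates 1 and 2 and ranked highest of all genes on both scales. FN1, encoding fibronectin, had 49784 and 50752 normalized counts. COL1A2, the partner chain of COL1A1, had 38503 and 38822 normalized counts. By count these 3 genes took the first 3 places in both libraries. VIM, encoding the intermediate filament protein of mesenchymal cells, had 14079 and 14087 normalized counts and place 7. SPARC, encoding a collagen-binding matrix protein, had 12161 and 12001 normalized counts and place 11. Of 20 fibroblast markers 19 were expressed and none was at the floor, whereas 56.0% of all protein-coding genes were expressed. The exception was S100A4, a calcium-binding protein gene used as a fibroblast marker, with 7 and 6 reads. The marker list was chosen with earlier results of these data known, so this count is a description and not an independent check. Markers of activated fibroblasts in tissue were expressed as well, POSTN (periostin) with 501 and 466 and FAP (a surface protease) with 201 and 182 normalized counts.

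Counts were concentrated in few genes. COL1A1 alone held 3.80% of the normalized counts in replicate 1 and 3.92% in replicate 2. The 10 highest genes held 11.8% ± 0.135 (SD, n = 2), and the 100 highest held 26.9% ± 0.145. Beyond them the distribution was broad, as the first 50% of counts needed 674 genes in replicate 1 and 665 in replicate 2. Means of at least 1000 normalized counts were reached by 331 genes and of at least 100 by 5145. Protein-coding genes carried 97.6% of the counts in each library. Of 18995 such genes 10646 were expressed, against 269 of 2299 long noncoding RNA genes.

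**Figure D1:**
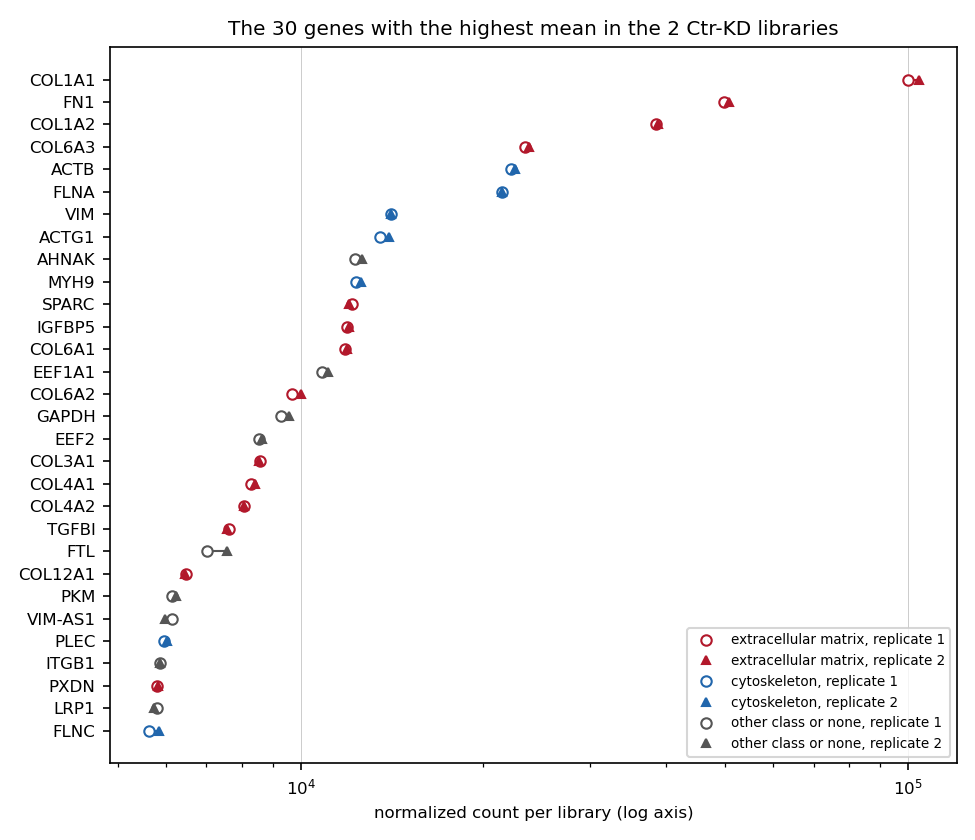
Normalized counts (log axis) of the 30 genes with the highest mean, with a circle for Ctr-KD replicate 1 and a triangle for replicate 2, coloured by class. COL1A1 lies at 100129.6 and 104010.0 and the symbols of the other 29 genes nearly coincide, with FTL the farthest apart at 7015 and 7559.

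Extracellular matrix genes were many among the highest genes by count. The 4 matrix classes (collagens, matrix glycoproteins, proteoglycans, and matrix enzymes with their inhibitors) together gave 29 of the 100 highest genes, whereas they made up 1.27% of all expressed genes. Together they held 16.1 and 16.3% of the counts in replicates 1 and 2. Transcripts of this kind are long, with a median of 4412 bases in 143 expressed matrix genes against 3510.5 in 10646 expressed protein-coding genes. Per length the matrix share was 9.36 and 9.44%, and 17 of the 100 highest genes were matrix genes (22 with the length of all exons of a gene).

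Collagens were expressed from 24 of 44 listed genes, and 18 were at the floor. The chains of type VI collagen, which forms beaded microfibrils around cells, were also among the 20 highest genes by count. COL6A3 had 23373 and 23807 normalized counts. COL6A1 had 11829 and 11926 normalized counts. COL6A2 had 9689.5 and 10001 normalized counts. Chains that assemble together were compared per length. The ratio of COL6A1 to COL6A2 was 0.989 ± 0.016 (SD, n = 2), that of COL5A1 to COL5A2 was 0.965 ± 0.015 and that of COL4A1 to COL4A2 was 1.02 ± 0.0085. COL1A1 exceeded COL1A2 per length by 2.26 ± 0.048 times, and COL3A1, the fibrillar chain of elastic tissues, lay below COL1A1 by 11.1 ± 0.312 times. These ratios depend on the transcript length taken. With the length of all exons of a gene they were 1.16, 0.782, 1.36, 3.17 and 8.96 in the same order. The chain pairs were picked after their values were seen.

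COL4A1 and COL4A2 encode the main chains of basement membrane collagen and lie head to head on chromosome 13. COL4A1 had 8302 and 8407 normalized counts. COL4A2 had 8072 and 8078 normalized counts. In RefSeq (GRCh38.p14) COL4A1 starts at base 110307157 of the minus strand and COL4A2 at base 110307284 of the plus strand, so that 126 bases separate the starts. The interval is shown because both genes were among the 20 highest and share it, with the CCAAT motif in capitals, 22 bases from the start of COL4A1 and 105 from that of COL4A2.
COL4A1 to COL4A2, chr13:110307158-110307283, plus strand: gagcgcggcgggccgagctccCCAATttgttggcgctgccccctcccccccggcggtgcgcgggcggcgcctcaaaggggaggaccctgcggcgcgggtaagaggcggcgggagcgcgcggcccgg

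Matrix glycoproteins after FN1 and SPARC included IGFBP5, which binds insulin-like growth factors and matrix, with 11934 and 12017 normalized counts. TGFBI, an adhesion protein induced by TGF-beta, had 7612 and 7555 normalized counts. PXDN, the peroxidase that crosslinks collagen IV, had 5806 and 5819.9 normalized counts. Of this class 54 of 66 genes were expressed. The microfibril proteins fibrillin were expressed from FBN1 with 4775 and 4809.6 and FBN2 with 4259 and 4332 normalized counts, a per-length ratio of 1.05 ± 0.0072 (SD, n = 2). Proteoglycans held less than the other matrix classes on both scales, 0.535 and 0.539% of the counts and 0.269 and 0.274% of the per-length levels. DCN, encoding decorin, which coats collagen fibrils, had the most counts, 2762 and 2669. Per length GPC1, a glypican of the cell surface, was above DCN with 517 and 555 against 441 and 424 TPM. That order depends on the transcript length taken, which was 6850 bases for DCN. HSPG2, encoding the basement membrane proteoglycan perlecan, had 2659.8 and 2739 normalized counts. In the enzyme class 48 of 50 genes were expressed. SERPINH1, the chaperone of procollagen, had 3616 and 3713 normalized counts. LOXL2, which crosslinks collagen, had 3435 and 3492 normalized counts, and LOX, the lysyl oxidase of collagen and elastin, had 2756 and 2845.

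Cytoskeletal genes were also frequent among the highest. The actin class had 69 of 70 genes expressed, gave 23 of the 100 highest genes by count and 15 per length, and held 6.63 and 6.64% of the counts. ACTB and ACTG1 encode the cytoplasmic actins. ACTB had 22239 and 22541 normalized counts, and ACTG1 had 13536 and 13989. Per length ACTB took place 2 of all genes, at 13436 and 13552 TPM, and exceeded ACTG1 by 1.72 ± 0.024 times (SD, n = 2), though the actins share much sequence with each other and with processed copies. FLNA, the actin crosslinker filamin A, had 21428 and 21426 normalized counts. MYH9, the nonmuscle myosin heavy chain, had 12335 and 12553 normalized counts. Short transcripts moved up once length was taken into account. TMSB10, a thymosin that binds actin monomers, moved from place 60 by count to place 6 per length, at 7927 and 7826 TPM. PFN1, encoding profilin, moved from place 56 to place 12, at 4689 and 4741 TPM. Intermediate filaments were led by VIM. PLEC, the linker plectin, had 5955 and 6023 normalized counts. LMNA, encoding the lamins of the nuclear envelope, had 2819 and 2895 normalized counts.

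Serum response factor drives many actin genes from a CArG box, and this box was sought on both strands in the 300 bases around RefSeq starts (GRCh38.p14, 250 before, 50 after). It was present in 7 of 62 (11.3%) expressed actin class genes with a promoter in the table, against 99 of 9067 (1.09%) expressed genes and 1.29% of all 27195 promoters. The members were ACTG1, ACTG2, CNN2, FHL2, FLNA, MYLK and TPM4. A match describes these letters only, and the box of FLNA also holds a CCAAT. Windows of 4 of the 7 genes are given to show how near the start the box lies, with the box in capitals. It began 94 bases before the start in ACTG1 and FLNA, 89 in CNN2 and 173 in TPM4.
ACTG1, chr17:81512874-81512903, minus strand: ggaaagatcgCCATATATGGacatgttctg
FLNA, chrX:154374709-154374738, minus strand: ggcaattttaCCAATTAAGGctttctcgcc
CNN2, chr19:1026509-1026538, plus strand: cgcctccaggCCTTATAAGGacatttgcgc
TPM4, chr19:16067355-16067384, plus strand: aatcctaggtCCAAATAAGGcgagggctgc

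Ribosomal protein genes had a larger share per length than by count. Of 87 listed names 83 were expressed, and they held 2.59 and 2.58% of the counts but 7.83 and 7.79% of the per-length levels. By count 3 were among the 100 highest genes, against 28 of the 100 highest per length (10 with the length of all exons). Their expressed members have short transcripts, with a median of 869 bases. RPL13A, of the large subunit, had 2759 and 2652 normalized counts. RPL3 had 2621 and 2582 normalized counts. RPLP0, of the ribosomal stalk, had 2390.2 and 2513 normalized counts. These genes have many processed copies in the genome and the authors counted uniquely mapped reads, so their levels are uncertain. Elongation factors belonged to the same machinery. EEF1A1, which brings aminoacyl-tRNA to the ribosome, had 10836 and 11097 normalized counts, and its exons overlap those of MTO1. EEF2, which moves the ribosome along the message, had 8543 and 8650.1 normalized counts.

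Many messages of the translation machinery start with C followed by pyrimidines, the terminal oligopyrimidine tract through which their translation is controlled. A C at the RefSeq start with pyrimidines at the next 4 bases was found in 43 of 67 (64.2%) ribosomal protein genes. It was found in 14 of 52 (26.9%) expressed genes of the translation factor class, against 5.53% of expressed genes and 4.05% of all promoters. That class was filled by symbol and also holds regulators such as EIF2AK2 and EEF2K. RPL3, RPL4 and RPL13, among the highest ribosomal protein genes by count, did not carry such a start. Windows of example genes of both classes that do are shown. The pyrimidine tract from the start base is in capitals after 12 bases of upstream sequence.
RPL13A, chr19:49487596-49487625, plus strand: caaaacctcctcCTTTTCCaagcggctgcc
RPLP0, chr12:120201094-120201123, minus strand: cgggcgcgaggcCCTTCTCTCgccaggcgt
RPS6, chr9:19380219-19380248, minus strand: cggaagttggccCTCTTTTCCgtggcgcct
EEF1A1, chr6:73521015-73521044, minus strand: gccgtgaacgttCTTTTTCgcaacgggttt
EEF2, chr19:3985446-3985475, minus strand: gacgtcagcgttCTCTTCCgccgtcgtcgc
TPT1, chr13:45341166-45341195, minus strand: ggctgagtcggcCTTTTCCgcccgctcccc

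**Figure D2:**
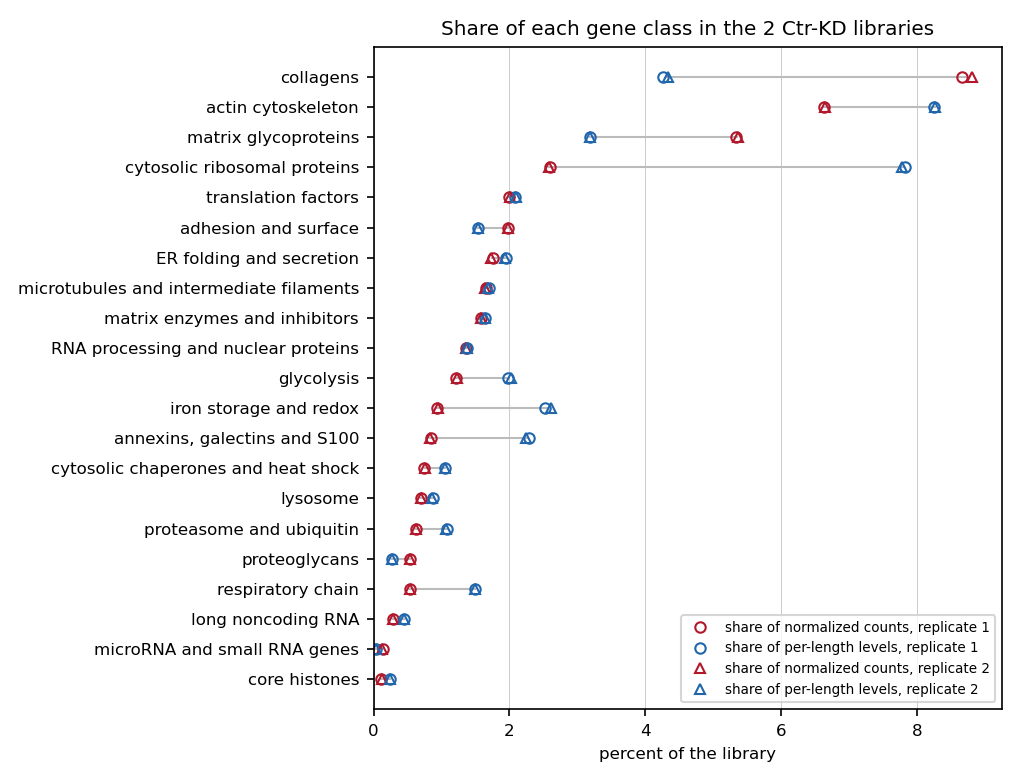
Share of each gene class in Ctr-KD replicate 1 (circles) and replicate 2 (triangles), as percent of normalized counts (red) and of per-length levels (blue), with a grey line between the means. Collagens take 8.67 and 8.82% by count and 4.26 and 4.34% per length, and ribosomal proteins 2.59 and 2.58% by count and 7.83 and 7.79% per length.

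Matrix proteins are folded and exported through the endoplasmic reticulum, and all 47 listed genes of this machinery were expressed, 35 of them among the 1000 highest. CALR, the calcium-binding chaperone calreticulin, had 3713 and 3705 normalized counts. P4HB, a disulfide isomerase and subunit of the collagen prolyl hydroxylase, had 3182 and 3167 normalized counts. HSPA5, the chaperone BiP, had 2338 and 2452 normalized counts. The CCAAT letters, in either orientation, were present around the start of 26 of 41 (63.4%) of these genes, against 36.9% of expressed genes and 35.7% of all promoters. The CCAAT nearest the start on the coding strand is shown in capitals for 3 high members.
CALR, chr19:12938503-12938532, plus strand: catgggcatagaCCAATgacaaagtggcag
P4HB, chr17:81860632-81860661, minus strand: gaagtccgccggCCAATcgaaggcgggccc
HSPA5, chr9:125241392-125241421, minus strand: gcagggccttcaCCAATcggcggcctccac

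Genes of energy metabolism included glycolysis and the respiratory chain. All 18 listed glycolysis genes were expressed and held 1.21 and 1.23% of the counts and 1.98 and 2.02% of the per-length levels. GAPDH had 9269 and 9561 normalized counts and place 5 per length, at 7897 and 8105 TPM. PKM, encoding pyruvate kinase, had 6135 and 6242 normalized counts. ENO1, encoding enolase, had 4903 and 5013 normalized counts. The nuclear genes of the respiratory chain held 0.532 and 0.528% of the counts and 1.49 and 1.49% of the per-length levels, with 88 of 99 expressed and none among the 100 highest on either scale. On both scales their highest gene was ATP5B, of the ATP synthase, with 1231 and 1206 normalized counts. The 10 MTRNR2L names, nuclear copies of a mitochondrial sequence, had no expressed member, and transcripts of the mitochondrial genome itself were not analysed here.

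Iron storage genes stood high per length. FTL, the ferritin light chain, took place 3 per length with 8818 and 9454 TPM. FTH1, the heavy chain, had 5024 and 4953 TPM, and its exons overlap those of BEST1. MT2A, a metallothionein that binds zinc and copper, had 3053 and 3318 TPM. Small calcium-binding and lectin genes were also high. LGALS1, encoding galectin, had 7792 and 7765 TPM and place 8 per length. ANXA2, an annexin of the plasma membrane, had 3301 and 3238 TPM. At the surface, ITGB1, the beta chain shared by most matrix-binding integrins, had 5869 and 5872 normalized counts. LRP1, a scavenger receptor, had 5813 and 5743 normalized counts, though its exons overlap those of STAT6. PTRF, which coats caveolae, had 4587 and 4694 normalized counts. CD44, the hyaluronan receptor, had 3331 and 3379.6 normalized counts.

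Further classes supplied fewer of the highest genes. The cytosolic chaperone HSPA8 had 3169.5 and 3223 normalized counts and the lysosomal protease CTSB had 3392 and 3513. Of genes for RNA processing and nuclear proteins 51 of 59 were expressed with none in the 100 highest on the count scale. HMGA1, an AT-hook chromatin protein, had 2097 and 2161 normalized counts and 1196 and 1226 TPM, and NPM1, the nucleolar protein nucleophosmin, had 1289 and 1316 TPM. The histone class, which also holds linker histones such as H1F0 and H1FX, had 12 of 81 listed genes expressed. The libraries were poly(A)-selected, so histone messages without a poly(A) tail would be missed and the other genes need not be silent. The leaders were replacement histones whose messages are polyadenylated, such as H3F3B with 759 and 752 and H2AFZ with 668 and 637 normalized counts. AHNAK, a giant scaffold protein of the membrane skeleton, was the highest gene by count outside every class, with 12314 and 12645 normalized counts. NSD2 itself, listed as WHSC1, had 463 and 443 normalized counts and place 1009.

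Long noncoding RNA genes with names of that kind were expressed in 65 of 913 cases and held 0.291 and 0.286% of the counts. MALAT1, a nuclear speckle RNA, had 1136 and 1128 normalized counts. MEG3, an imprinted RNA, had 952 and 941 normalized counts. NEAT1, which scaffolds paraspeckles, had 825 and 742 normalized counts. VIM-AS1 stood at place 25 with 6133 and 5979 normalized counts, but its exons overlap those of VIM on the other strand. The library kit does not mark strand, so reads of VIM and VIM-AS1 cannot be told apart there. Of the 100 highest genes 31 overlap an exon of another listed gene.

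Contractile genes of myofibroblasts and smooth muscle were present. Of 14 markers 13 were expressed, against 56.0% of protein-coding genes. TPM2, a tropomyosin, had 4125 and 4143 normalized counts. TAGLN, the actin-binding protein transgelin, had 3826 and 3754 normalized counts. ACTA2, the smooth muscle actin, had 2526 and 2653 normalized counts. Further smooth muscle genes of the panel ranged widely. ACTG2, another smooth muscle actin, had 1906 and 1949.6 normalized counts. CNN1 had 368 and 369 normalized counts, and LMOD1 had 321 and 308. The lowest of the 14 were MYH11, the smooth muscle myosin, with 18.1 and 14.4 normalized counts, and DES, encoding desmin, with 0 and 1 reads. Exons of TAGLN, ACTA2 and MYH11 overlap other listed genes. Among 10 pericyte markers 6 were expressed, including CD248 (endosialin) with 1579.5 and 1638 and CSPG4 (the proteoglycan NG2) with 1061 and 1099 normalized counts, while RGS5, a regulator of G-protein signaling typical of pericytes, had 8 and 6 reads.

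Genes of the lung mesenchyme panel were expressed in 18 of 24 cases, against 56.0% of protein-coding genes. Whether each listed gene is specific to this tissue was not tested. The panel also holds MACF1, with 1399 and 1401 normalized counts, and PLIN2, with 319 and 352. FOXF1, the forkhead factor of the lung mesenchyme, had 851 and 791 normalized counts. TBX2, a T-box factor of the same tissue, had 739 and 800.4 normalized counts. TBX5, which acts in the lung bud, had 108 and 91.6 normalized counts. TCF21, a bHLH factor of the lung mesenchyme, had 90.5 and 103 normalized counts. WNT5A, a ligand of the distal mesenchyme, had 1619 and 1693 normalized counts, and WNT2, another, had 22.9 and 23.7. Of the 6 other members 3 were low and 3 had no read. TBX4, a lung T-box factor, FGF10, the growth factor of bud tips, and NPNT, a matrix protein, were those without a read.

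Markers of other lineages were mostly at the floor. In 15 panels with 223 genes, 28 (12.6%) were expressed, 14 were low and 181 were at the floor, of which 135 had no read. Of all listed names 42.8% were expressed. In the epithelial panel CDH1 (E-cadherin) had 0 and 1 reads and EPCAM 1 and 1, whereas DSP (desmoplakin) had 217 and 229 normalized counts, the keratin KRT18 had 93.4 and 80.2 and its partner KRT8, whose exons overlap those of KRT18, had 64.8 and 77.2. The surfactant genes SFTPA1, SFTPB, SFTPC and SFTPD and the lung epithelial factor NKX2-1 had no read. CAV1 was the only expressed member of the alveolar panel, with 2212 and 2267 normalized counts, and it encodes the caveolae protein that fibroblasts also make. In the endothelial panel PECAM1, CDH5 and KDR had no read, while ENG, a TGF-beta co-receptor, had 940.3 and 935 normalized counts and TEK, the angiopoietin receptor, had 128 and 137. The leukocyte marker PTPRC (CD45) had no read, whereas CD4 had 88.6 and 102 normalized counts and the lysosomal protein CD68 had 78.1 and 70.0.

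Except for cartilage and bone, no remaining panel had more than 3 expressed members. Erythroid and platelet genes showed no expressed member but EPOR, the erythropoietin receptor, with 15.2 and 17.5 normalized counts. The muscle regulators MYOD1, MYF5 and MYOG had no read, and TTN, encoding titin, had 69.5 and 73.0 normalized counts. Among 20 neuronal genes 3 were expressed, including TUBB3, a tubulin, with 561 and 621 normalized counts, and STMN2, DCX and NEUROD1 had no read. Of the melanocyte panel MITF was expressed with 76.2 and 76.1 normalized counts, and TYR and DCT had no read. Of 12 adipocyte genes 2 were expressed, including PPARG with 70.5 and 62.8 normalized counts, and ADIPOQ and LEP had no read. The cartilage and bone panel had 7 of 17 members expressed, led by SOX9 with 75.3 and 70.0 and including RUNX2 with 68.6 and 46.3 normalized counts, while COL2A1, ACAN and SP7 had no read. No member of the glial, mesothelial, liver and germline panels was expressed. Of 12 pluripotency genes DNMT3B, a DNA methyltransferase, was expressed with 22.9 and 21.6 normalized counts, and POU5F1, NANOG and SOX2 had no read.

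**Figure D3:**
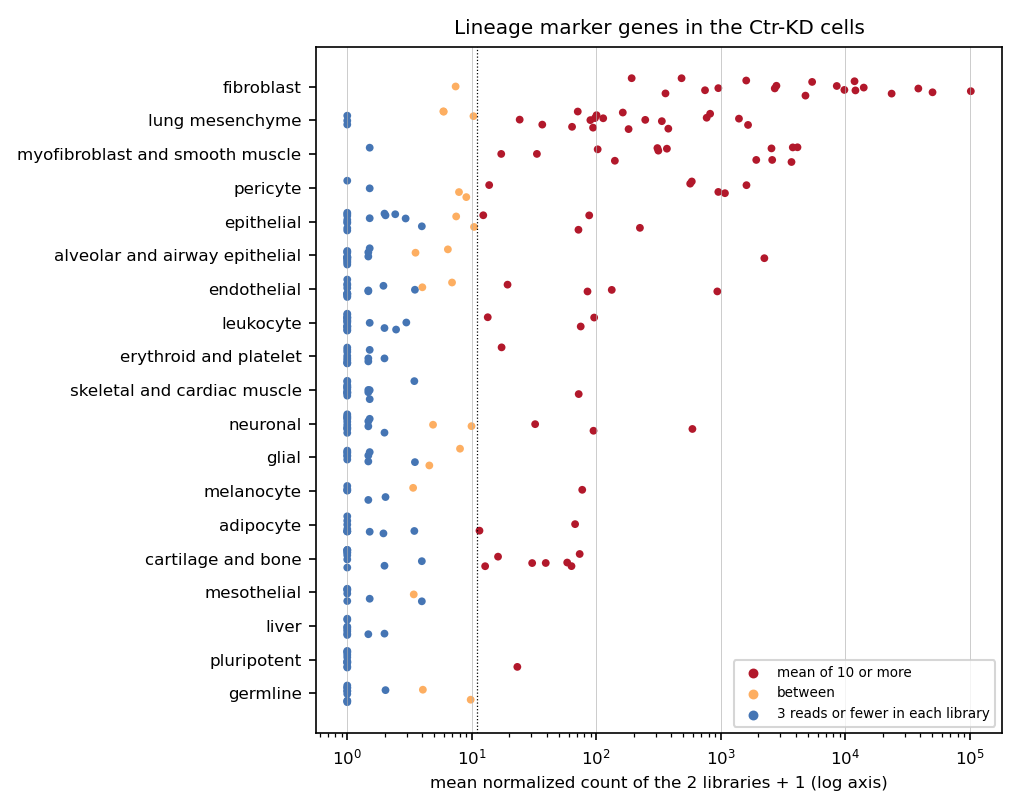
Mean normalized count plus 1 (log axis) of each marker gene in 19 lineage panels, with expressed genes in red, genes at the floor in blue, genes between in orange, and a dotted line at the minimum of 10. Points are spread vertically for legibility. The fibroblast row holds the highest point, COL1A1, whereas 181 of 223 genes in the panels from epithelial to germline are blue.

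Cycling genes were all above the minimum. All 11 proliferation markers were expressed. MKI67, encoding the Ki-67 antigen, had 912 and 967 normalized counts. TOP2A, the topoisomerase of dividing cells, had 629 and 662 normalized counts. All 11 genes for D cyclins, their kinases and inhibitors were expressed as well. CCND1, encoding cyclin D, had 3099 and 3112 normalized counts. CDKN1A, encoding the CDK inhibitor p21, had 1851 and 1905 normalized counts. CDKN2A, encoding p16 and ARF, had 81.9 and 97.7 normalized counts, and CDKN2B, its neighbor, had 33.3 and 43.2. In the telomere list 7 of 8 genes were expressed and TERT, the telomerase catalytic subunit, had no read.

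Secreted inflammatory factors were near or at the floor. Of 10 listed genes 2 were expressed, CXCL12 with 21.9 and 23.7 and CCL2 with 12.4 and 16.5 normalized counts. IL6 had 7 and 2 reads and CXCL8 had 5 and 3 reads. IL1A had 2 and 0 reads, and CXCL1, CXCL2, CCL5 and CSF2 had none. Interferon response genes were not all low. Of 13 listed 8 were expressed, with a median of 42.2 normalized counts. The 13 together had 1289 and 1303 normalized counts, most of them in members not named here. ISG15, a ubiquitin-like protein, had 47.6 and 49.4 normalized counts. MX1, an antiviral GTPase, had 2 and 2 reads, and OAS1 and IFNB1 had none.

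Growth factor genes included ligands and receptors of the same pathways. Of 30 secreted factors 26 were expressed. GREM1, a secreted antagonist of BMPs, had the most counts, 5455 and 5445, and place 33, but 410 and 407 TPM. CTGF, a matricellular protein, had 1604 and 1652 normalized counts and was above GREM1 per length, with 751 and 770 TPM. Their per-length order depends on the transcript length taken, which was 14575 bases for GREM1. IGF2 had 863 and 915 normalized counts, and its exons overlap another listed name, whereas IGF1 had 1 and 0 reads. TGFB1 had 389 and 407 normalized counts, TGFB2 had 141 and 150.2, and TGFB3 had 1 and 3 reads. Of 28 receptor genes 21 were expressed. AXL, the receptor kinase for GAS6, had 2245 and 2282 normalized counts. PDGFRB, a receptor of platelet-derived growth factors, had 986 and 925 normalized counts and PDGFRA had 748 and 746, a per-length ratio of 1.43 ± 0.062 (SD, n = 2). FGFR1 had 689.7 and 687 normalized counts, FGFR3 had 5 and 2 reads, and FGFR2 had none. TGFBR2 had 795 and 849.8 normalized counts and EGFR had 463 and 501.

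Transcription factor genes were assigned to 49 families by symbol. Of these 638 genes 293 (45.9%) were expressed, 42 were low and 303 were at the floor. By comparison, 42.8% of all listed names and 56.0% of protein-coding genes were expressed. The factor genes held 1.76% of the counts in replicate 1 and 1.75% in replicate 2. None was among the 100 highest genes by count. The highest by count was EPAS1 at place 169, which encodes HIF-2 alpha, with 1649 and 1694 normalized counts. Only CREB3L1, HIF1A and TEAD1 also had means above 1000.

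Per length the order changed. ATF4, the factor of the integrated stress response, was highest with 513 and 536 TPM. CREB3L1, a membrane-bound factor that activates collagen genes, had 418 and 444 TPM. EPAS1 had 350.2 and 358 TPM and HIF1A had 285 and 287, and both encode oxygen-regulated subunits. FOSL1, the AP-1 protein FRA1, had 327 and 356 TPM. FOXF1 had 265 and 245 TPM and TBX2 had 236 and 254, so that both lung mesenchyme factors were within the 8 highest factors. ID3, which lacks a DNA-binding domain and blocks bHLH factors, had 298 and 290.2 TPM, and its relative ID1 had 180.4 and 171. The endoplasmic reticulum stress factor XBP1 had 170.0 and 190.2 TPM. Some neighbors in this order exchanged place between the libraries. XBP1 was below MXD3 in replicate 1 and above it in replicate 2, whereas ID3 was above HIF1A in both.

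**Figure D4:**
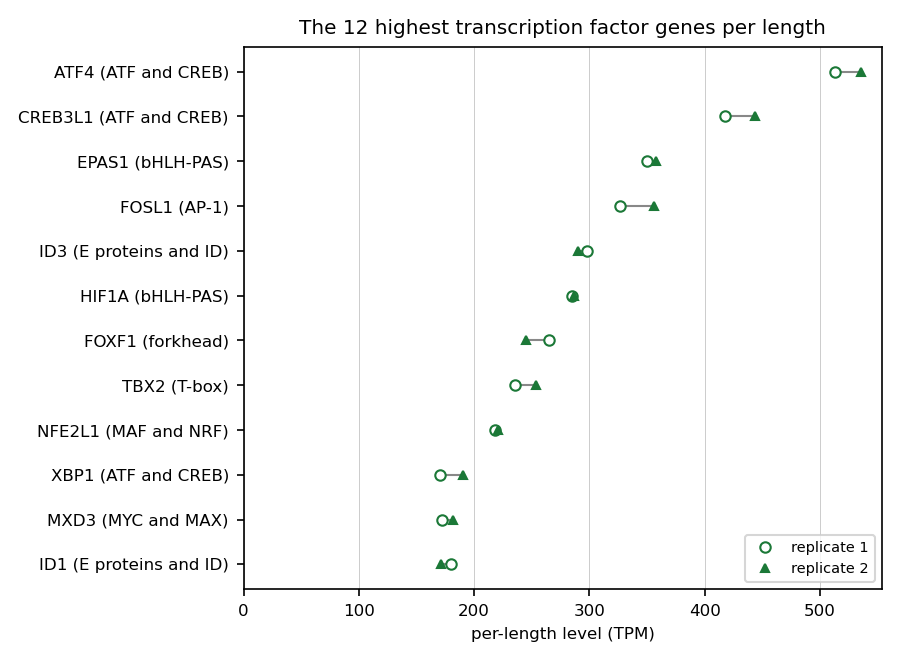
Per-length level, scaled to 1000000 in each library (linear axis from 0), of the 12 highest transcription factor genes, with a circle for Ctr-KD replicate 1 and a triangle for replicate 2 and the family in brackets. ATF4 lies at 513 and 536 and ID1, the lowest shown, at 180.4 and 171.

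Families differed in how many members were expressed. All members were expressed in 5 families, namely E proteins and ID, TEAD, SRF and MEF2, SMAD, and the general group with CTCF and YY1. TEAD1, which binds the YAP coactivator, had 1004 and 1027 normalized counts. SRF, which binds CArG boxes, had 336 and 355 normalized counts, its coactivator MKL1 had 231 and 209 and the muscle coactivator MYOCD had 94.3 and 109. SMAD3, a transducer of TGF-beta, had 573 and 585 normalized counts. No member was expressed in 5 families, namely PAX, LIM homeobox, NKX, AP-2 and EBF. Developmental families had a few members each. Forkhead genes were expressed in 18 of 51 cases. SOX genes were expressed in 7 of 19 cases, including SOX4 with 200.1 and 169 normalized counts. T-box genes were expressed in 4 of 17 cases. HOX genes were expressed from the A cluster (2 of 11) and the B cluster (6 of 10), including HOXB3 with 174 and 179 normalized counts, and from neither the C nor the D cluster (0 of 9 each).

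Regulators of the mesenchymal state were expressed beside relatives at or near the floor. ZEB1, a repressor of epithelial genes, had 473 and 471 normalized counts and SNAI2 had 189.6 and 221, whereas SNAI3 had 2 and 1 reads. TWIST1, a bHLH factor of mesenchyme, had 58.1 and 61.7 normalized counts and TWIST2 had 27.6 and 28.8. PRRX1, a homeobox factor of fibroblasts, had 129.6 and 129 normalized counts, and the hindlimb factor PITX1 had 332 and 379.6. NFIC, of the nuclear factor I family, had 563 and 614 normalized counts and NFIX had 489.7 and 504, whereas NFIB had 2 and 0 reads. Of AP-1 genes JUN had 485 and 497 normalized counts and FOSL1 had 508 and 557, whereas FOS had 8 and 5 reads. NR2F2, an orphan nuclear receptor, had 652 and 588 normalized counts.

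Promoter letters differed with level across the table of RefSeq starts (GRCh38.p14). The shares are a description. The GC-rich motif GGGCGG, on either strand, was present in 70 of 79 (88.6%) of the 100 highest genes with an entry, 71.5% of expressed genes and 35.6% of genes at the floor, against 44.7% of all promoters. The median GC content of the 300 bases was 70.0%, 65.7% and 55.0% in the same order. A TATAAA on the coding strand within 50 to 11 bases before the start was present in 7 of 79 (8.86%) of the 100 highest genes, 1.39% of expressed genes, 6.61% of genes at the floor and 2.88% of all promoters. The 7 high genes were ANXA2, CALR, COL6A2, EEF2, IGFBP4, P4HB and RPLP0. COL6A2 and EEF2 are shown with the motif in capitals. COL1A1, COL1A2, COL3A1 and ACTB had no entry in the table.
COL6A2, chr21:46098068-46098097, plus strand: ggcggggcggggTATAAAgggggcggcgcc
EEF2, chr19:3985476-3985505, minus strand: ccggcgtccgccTATAAAaagctgagtgtt

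The 2 libraries differed in few genes. Of 12373 genes with at least 10 reads over both libraries, 5 differed between them (0.0404%) by an exact binomial test per gene with Benjamini-Hochberg adjustment, and 595 (4.81%) had an unadjusted p under 0.05. COL1A1 was 0.05 higher in replicate 2 on the log2 scale (two-sided exact binomial test, adjusted p = 7.72e-14). FTL was 0.11 higher in replicate 2 (adjusted p = 0.0253, exact binomial test), and TUBA1A, a tubulin with 1647 and 1299 reads, was lower in replicate 2 by 0.23 (adjusted p = 0.0362, exact binomial test). Reads of TUBA1A are uncertain, since tubulin genes are near-identical in sequence. PKMYT1, a kinase that holds CDK1 inactive, had 57 reads in replicate 1 and 109 in replicate 2 (adjusted p = 0.0253, exact binomial test). Exons of PKMYT1 overlap those of KREMEN2 and PAQR4, so its reads are uncertain. PAQR4 had 36 and 72 reads (adjusted p = 0.283, exact binomial test). PRKRIR had 101 and 43 reads (adjusted p = 0.0362, exact binomial test). Since each library is 1 sample, these tests compare the 2 libraries and not conditions.

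The spread was close to that of counting but slightly above it. The chi-square of the 2 libraries over the 12373 genes was 1.05 per degree of freedom (p = 5.11e-05, chi-square test against counting error). That test takes the genes as independent, though names that share exons can share reads, so its p is approximate and can be too small. By degree of freedom the chi-square was also taken in bands of reads. It was 1.02 for genes with 10 to 29 reads, 0.98 for 30 to 99, 1.09 for 100 to 299, 1.01 for 300 to 999 and 1.26 for 1000 or more. In the 100 highest genes the median coefficient of variation was 1.32%, and the highest, of FTL, was 5.27%. Of 5145 genes with a mean of at least 100 normalized counts, 5139 (99.9%) were within 1.5-fold of each other, against 10651 (94.5%) of all 11272 expressed genes. The log2 levels of these 11272 genes had a Pearson r of 0.986 and a Spearman rho of 0.988 across genes, which share the libraries and are not independent. The 10 highest genes of each library were the same, and 98 of the 100 highest were shared. Genes read in 1 library only numbered 1855, of which 1778 had at most 3 reads.

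**Figure D5:**
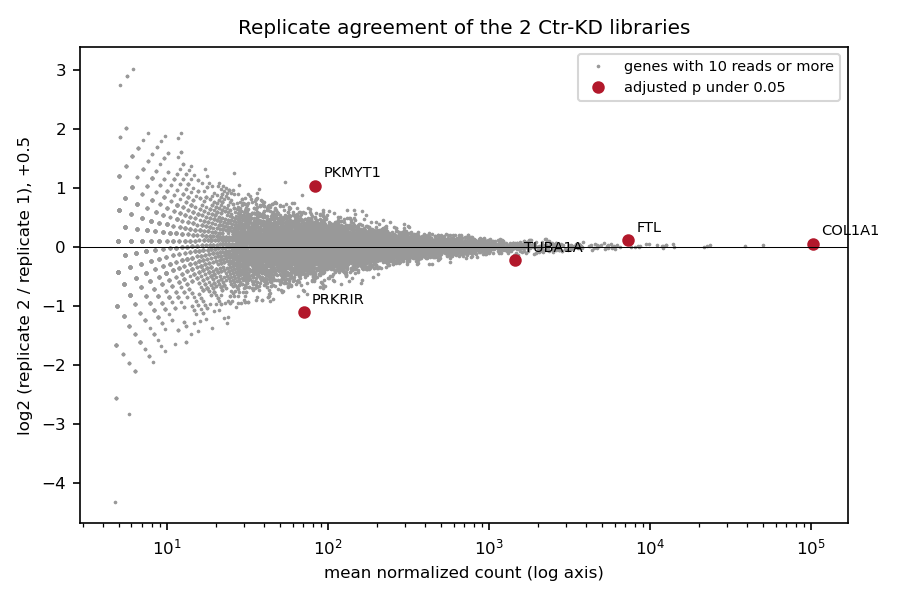
Log2 ratio of Ctr-KD replicate 2 to replicate 1, with 0.5 added to each normalized count, against the mean normalized count (log axis). Each grey point is 1 gene with at least 10 reads over both libraries, and the 5 named red points are the genes past the threshold. The spread narrows from left to right, and COL1A1 lies 0.05 above the line at the far right.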

How the data were processed

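Both Ctr-KD libraries were poly(A)-selected, made with a kit that does not mark strand, and counted by the authors. Per the labels and the study's methods, the reads were aligned to hg19 with HISAT2, filtered for uniquely mapped reads with SAMtools, counted per gene with featureCounts and scaled with DESeq2. The gene annotation used for counting is not given in the sources used here. The values the authors deposited are these normalized counts (unit: signal, scaled between libraries and not by gene length). A second deposited table with the authors' own comparison (fold changes and p-values) and the 3 NSD2 siRNA columns were not used.

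Reads were recovered by dividing each column by its smallest value above 0, and 100% of values came out whole within 0.01. Depth was 2769316 and 2579675 reads summed over names, in which reads of shared exons can be counted for several names. Depth sets the precision, and intervals and floors cover counting error only. Names were matched to GENCODE 44 on GRCh37 by symbol (22393) or by a RefSeq synonym that points to a single symbol (1315), which covered 98.0% of expressed genes. Per-length levels used the canonical transcript of 21291 protein-coding and long noncoding RNA genes of at least 200 bases, which held 98.7% of reads. The 28 names in date form stayed in the totals and in no class. RefSeq promoters (GRCh38.p14) were matched by symbol.

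Genes were ranked by the mean of both columns and counted in 22 classes, 19 lineage panels, 7 further lists and 49 transcription factor families, and genes named are the highest of each list and the defining markers at the floor. The members and lists were chosen with earlier results of these data known. The libraries were compared with a two-sided exact binomial test per gene on recovered reads, with the expected share from the size factors, at an adjusted p of 0.05, in SciPy 1.17.1, after a check on simulated counts. Alternatives were other minimums, per-length levels, each library alone, scaling by total reads and, chosen after seeing the data, the length of all exons and genes without overlap. The values of some genes are not reported here.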

Additional observations from a re-analysis of the deposited data

How the results depend on the processing

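Counts of expressed genes kept within 1.5 times under the alternatives run: 7607 to 12898 of all genes against 11272, 64 to 107 lineage markers against 83, and 200 to 335 transcription factors against 293. With either library alone they were 11298 to 11320, 84 to 87 and 293 to 296. The choice of scale mattered most. Per length, the 10 highest genes held 9.50% (10.2% with the length of all exons) against 11.8%, and the 100 highest held 27.5% (26.5%) against 26.9%. Matrix genes among the 100 highest numbered 17 per length against 29, and 22 with all exons. Ribosomal protein genes numbered 28 per length against 3, and 10 with all exons. In the 200 highest genes their percentages were 22.5 and 4.5. All 22 class shares moved by more than the SD of the libraries per length, 16 up and 6 down. Of these 6, the class of 10 MTRNR2L names fell to 0 because its members with reads have no per-length level. Another of the 6, the class of microRNA and small RNA genes, fell from 0.1295% to 0.0358%, and members such as MIR4426 and MIR1282 have no per-length level. All 22 shares also moved when the 10 highest genes were left out. Leaving out the 10 highest genes raises the share of every class without them by construction. With 2 libraries a single library always lies within 1 SD of their mean, so class shares were not checked that way. Each library alone gave 11.7% to 11.9% for the 10 highest genes, 26.8% to 27.0% for the 100 highest, 29 matrix genes and 3 ribosomal protein genes.

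Genes that differed between the libraries numbered 5 with a minimum of 50 reads or none, and 4 when scaled by total reads, which lost FTL. The chi-square per degree of freedom was 1.06 with a minimum of 50 reads, 1.05 when scaled by total reads and 1.04 without the 100 highest genes. No paired analysis was possible because only Ctr-KD libraries were used, and these form a single group. Genes with 3 reads or fewer in each library were grouped as at the floor at this depth. Some of them had reads in both libraries, such as KRT7 with 3 and 3, so being at the floor does not mean absence. The all-exon length and the count without overlapping genes were chosen after seeing the data.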

Other observations

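Several listed names share their exons with another gene. Of 1281 microRNA loci matched to the annotation, 25 reached a mean of 10 normalized counts, and all 25 lie within exons of another listed gene, against 169 of the 1256 others. Libraries of this kind hold no mature microRNA. MIR1282, for example, lies in an exon of SERF2.

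Names that join neighboring genes were expressed in 94 cases. Their mean was at the median 79.0% of the sum of both parts, and in 45 cases it lay within 20% of that sum. PALM2-AKAP2 had a mean of 1192 normalized counts beside 1186 for AKAP2, and INS-IGF2 had 862 beside 889 for IGF2, while INS had no count. The ribosomal copy RPL13AP5 had 2491 beside 2706 for RPL13A.

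Of 28 names in date form, 17 were expressed, the highest with a mean of 1714 normalized counts, and they held 0.256% of the counts in replicate 1 and 0.255% in replicate 2. Which gene each stands for was not resolved.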
